A study of Homo sapiens with 15 samples.

Results

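RPS6KA2 and 6 of its relatives in the ribosomal S6 kinase family were followed in THP-1 cells, across all 5 groups of the study. THP-1 is a human monocytic leukaemia line. Members were every non-control probe set that the platform annotation, matched by Entrez gene number, assigns to RPS6KA1, RPS6KA2, RPS6KA3, RPS6KA4, RPS6KA5, RPS6KB1 or RPS6KB2 and to no other gene. This gave 15 probe sets for 7 of the 19775 genes with a probe set of their own. RPS6KA2 was selected on its log2 difference between infliximab and untreated cells. Its 3 probe sets are therefore described without a test wherever infliximab is compared with untreated cells or with CDP870. The same holds between 24 h and 6 h of infliximab and for the interaction of drug and time. The other 6 genes, with 12 probe sets, were added as relatives of RPS6KA2. The list was drawn up with earlier results of these data known, and RPS6KA6 is not in it.

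The groups were cells given infliximab for 6 h, infliximab for 24 h, CDP870 for 6 h, CDP870 for 24 h, and untreated cells at 0 h, with 3 arrays each. Both agents bind tumour necrosis factor. Infliximab is a whole chimeric IgG1 antibody; CDP870 is a Fab' fragment coupled to polyethylene glycol, without an Fc part. Doses are not stated in the labels, and the untreated cells were taken at 0 h only, so drug and time in culture cannot be told apart in any comparison with them. The design text calls a group's arrays biological replicates, and p-values measure the spread between them. The cells are a single leukaemia line, and RNA was read in bulk, so a change in part of the cells and a change of RNA per cell cannot be told apart.

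Ribosomal S6 kinases are serine/threonine kinases that carry growth factor and stress signals to translation and transcription. The RSK kinases (RPS6KA1, RPS6KA2 and RPS6KA3) have a kinase domain at each end and are switched on by ERK together with PDK1. The MSK kinases (RPS6KA4 and RPS6KA5) share that layout, answer to ERK and p38 and act mainly in the nucleus, on CREB and histone H3 among others. The S6K kinases (RPS6KB1 and RPS6KB2) have a single kinase domain, are activated by mTORC1 and phosphorylate ribosomal protein S6. All of them are controlled chiefly by phosphorylation, which an array does not measure; the values below are transcript levels.

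Values are log2 probe set summaries. Array medians, taken over non-control probe sets, ran from 2.93 to 3.07. Mean hybridisation spike-in levels were 7.75 ± 0.04 with infliximab for 6 h, 7.5 ± 0.16 with infliximab for 24 h, 7.5 ± 0.13 with CDP870 for 6 h, 7.6 ± 0.21 with CDP870 for 24 h and 7.38 ± 0.13 in untreated cells (log2, SD, n = 3 each). The 3 arrays with the lowest mean correlation with the others were infliximab 24 h replicates 5 and 6 (0.9727 and 0.9787) and untreated replicate 3 (0.9805), against 0.9827 to 0.9885 for the rest. Of 12 monocytic markers 10 had a probe set, among them LYZ, ITGB2 and TYROBP at means of 9.37, 9.19 and 8.38 in untreated cells, while CD14 did not pass the filter. With infliximab 1 of the 9 tested monocytic markers was called higher at 6 h and 4 at 24 h. Over all tested probe sets 4.02% were called higher at 6 h and 3.78% at 24 h, also the shares for the markers named next. Of 7 epithelial markers, CDH1 and KRT14 stayed below the filter and 4 of the 5 tested were called higher with infliximab at 6 h and 5 of 5 at 24 h. Their summed level (log2) was 9.82 to 10.12 with infliximab for 6 h, 9.96 to 10.1 with infliximab for 24 h, 8.89 to 9.09 with CDP870 for 6 h, 8.97 to 9.16 with CDP870 for 24 h, and 9.34 to 9.58 in untreated cells. No T-cell, B-cell or red-cell marker was called with infliximab. A fit with the spike-in level as a covariate was also run and is given below where it moved a value or ended a call. The part of the epithelial markers in the results below was not tested.

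RPS6KA2 encodes RSK3 and lies on the minus strand at chr6:166409364-166862773 (RefSeq, GRCh38.p14). RefSeq lists 3 promoter windows for it in the table used here, each running from 250 bases before a transcript start to 50 bases after it. They are printed because RPS6KA2 was the family member whose probe sets diverged with infliximab, and because the gene has several starts. The windows are given 5′ to 3′ on the minus strand and named by their position. The 50 bases after each window's own transcript start are in capitals, the rest in lower case. Lower-case bases can still be transcribed from another start, since windows can lie inside the gene.
chr6:166544641-166544940: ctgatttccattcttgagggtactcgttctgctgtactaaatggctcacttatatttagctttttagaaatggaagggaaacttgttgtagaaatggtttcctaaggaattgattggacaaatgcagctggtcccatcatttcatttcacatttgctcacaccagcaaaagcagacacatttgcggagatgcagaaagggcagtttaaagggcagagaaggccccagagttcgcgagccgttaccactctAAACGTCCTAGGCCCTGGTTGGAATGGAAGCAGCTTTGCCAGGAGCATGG
chr6:166627202-166627501: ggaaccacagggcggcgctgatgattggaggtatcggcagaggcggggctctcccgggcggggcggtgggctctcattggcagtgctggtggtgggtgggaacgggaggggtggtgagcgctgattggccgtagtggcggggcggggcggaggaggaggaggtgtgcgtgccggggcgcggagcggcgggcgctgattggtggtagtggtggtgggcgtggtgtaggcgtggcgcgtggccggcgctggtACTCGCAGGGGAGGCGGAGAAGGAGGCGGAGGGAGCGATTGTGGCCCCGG
chr6:166862476-166862775: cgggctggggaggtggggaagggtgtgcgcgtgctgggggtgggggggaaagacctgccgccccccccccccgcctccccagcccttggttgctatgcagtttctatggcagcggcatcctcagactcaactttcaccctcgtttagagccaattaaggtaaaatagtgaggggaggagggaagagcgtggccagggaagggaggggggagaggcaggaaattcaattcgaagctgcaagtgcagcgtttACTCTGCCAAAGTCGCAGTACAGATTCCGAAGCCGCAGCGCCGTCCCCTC

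The window at chr6:166627202-166627501 has a GC content of 72.3%, against 61.3% in the window at chr6:166862476-166862775 and 45.7% in the one at chr6:166544641-166544940. Both strands of the 12 windows of the 7 genes were searched for TGATGNAA, the C/EBP-ATF response element, TGACGTCA, the cyclic AMP response element, and CACGTG, the E-box. None of the 3 motifs contains another. None of the 12 windows held any of the 3, against shares of 3.62%, 1.85% and 7.26% of 35116 windows of the same length over all genes. The absence says only that these letters are not in these windows. Which start the measured transcripts used is not known from these values.

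In cells given infliximab, RPS6KA2 was read far higher by 1 of its probe sets, moderately higher by another, and with a small difference by the last. Probe set 212912_at read 4.96, 4.57 and 5.02 with infliximab for 6 h and 5.93, 5.94 and 5.14 with infliximab for 24 h. It read 1.87, 1.59 and 1.73 with CDP870 for 6 h, 1.53, 1.91 and 1.72 with CDP870 for 24 h, and 1.71, 2.06 and 1.67 in untreated cells. All 6 infliximab arrays lay above all 9 other arrays, and those 9 lay below the median of their arrays. The probe set passed the filter through the infliximab arrays alone (6 of 15), so its level elsewhere is near the bottom of the scale, where folds are least certain.

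The means of 212912_at were 4.85 ± 0.24 with infliximab for 6 h and 1.81 ± 0.21 in untreated cells (SD, n = 3 each), a log2 difference of 3.04 ± 0.2 (SE), or 8.21-fold. At 24 h the mean was 5.67 ± 0.46 with infliximab, 14.5-fold above untreated cells (log2 3.86 ± 0.2). Set against CDP870, the log2 difference was 3.12 at 6 h (8.69-fold) and 3.95 at 24 h (15.5-fold). Among 28897 tested probe sets this was the highest difference from untreated cells at 24 h and ranked 3 at 6 h, which is how the gene was chosen. Without the 3 arrays that stood apart, the difference from untreated cells was 3.16 at 6 h and 3.45 at 24 h. The 24 h value rests on replicate 7 as the only infliximab array left at that time.

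Probe set 204906_at read the same gene at 6.09, 5.86 and 5.8 with infliximab for 6 h and 6.43, 6.66 and 6.03 with infliximab for 24 h. Its values were 5.13, 5.03 and 5.0 with CDP870 for 6 h, 5.04, 5.42 and 5.41 with CDP870 for 24 h, and 5.12, 5.08 and 4.96 in untreated cells. Again every infliximab array lay above every other array, but by less. The difference from untreated cells was 0.86 ± 0.15 at 6 h (1.82-fold) and 1.32 ± 0.15 at 24 h (2.5-fold) on the log2 scale, and that from CDP870 was 0.86 and 1.08. It ranked 257 at 6 h and 76 at 24 h against untreated cells. Without the 3 arrays that stood apart, the 24 h difference was 0.99 from untreated cells and 0.74 from CDP870. Both of these values rest on replicate 7 as the only infliximab array. With the spike-in level as a covariate, the 6 h difference was 1.1 from untreated cells and 1.03 from CDP870.

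The remaining probe set, 1557970_s_at, read 4.21, 4.04 and 4.18 with infliximab for 6 h, 4.4, 3.99 and 3.86 with infliximab for 24 h, 3.98, 4.01 and 3.95 with CDP870 for 6 h, 4.04, 3.84 and 3.6 with CDP870 for 24 h, and 3.82, 3.91 and 3.96 in untreated cells. The 6 h infliximab arrays lay just above the untreated ones, while the 24 h infliximab arrays overlapped them. Its log2 difference from untreated cells was 0.25 ± 0.13 at 6 h and 0.19 ± 0.13 at 24 h. The 24 h value was -0.03 without the 3 arrays that stood apart, where replicate 7 is the only infliximab array. It lay at rank 3958 at 6 h and 5315 at 24 h, so the 3 probe sets of the gene disagree in size. Which transcripts each probe set reads is not given in the files used here.

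**Figure D1:**
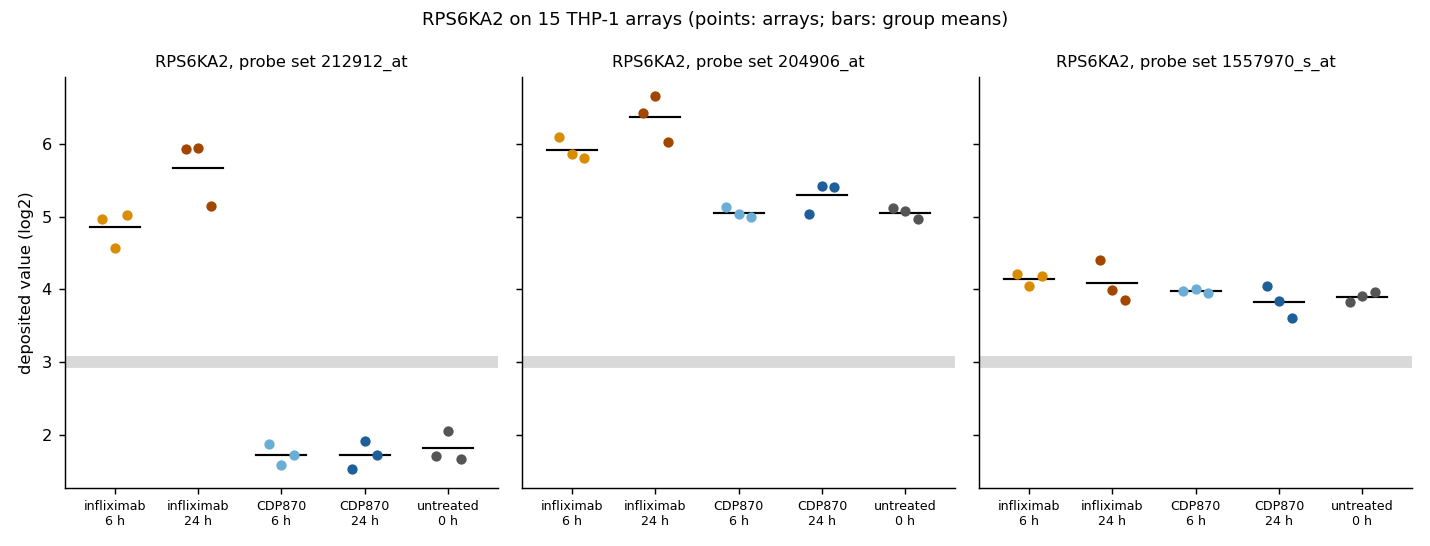
Log2 values of the 3 RPS6KA2 probe sets on all 15 arrays, 1 panel per probe set, with group means as bars, infliximab at the left and untreated cells at the right; the grey band is the range of the array medians (2.93 to 3.07). Probe set 212912_at lies above the band on all infliximab arrays and below it on all others, 204906_at is above the other groups with infliximab, and 1557970_s_at overlaps between infliximab for 24 h and untreated cells.

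With CDP870 neither 204906_at nor 1557970_s_at was called, and no limma adjusted p of these was below 0.974. At 6 h the log2 difference from untreated cells was -0.08 for 212912_at, 0.0 for 204906_at and 0.08 for 1557970_s_at. At 24 h it was -0.09, 0.24 and -0.07. For 212912_at these are values only. That probe set passed the filter through its infliximab arrays alone, and the groups compared here lay below the array medians. Across the array 0% of the 28897 tested probe sets were called for CDP870 at either time, with 1352 at an unadjusted p under 0.05 at 6 h and 1359 at 24 h.

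Between 24 h and 6 h of infliximab, 212912_at differed by 0.82 ± 0.2, 204906_at by 0.46 ± 0.15 and 1557970_s_at by -0.06 on the log2 scale. The gene was selected on the high values of these arrays, so these differences are given as values without a test. The groups of 212912_at did not overlap, while those of 204906_at did. Among the 11 tested probe sets of the other genes, only RPS6KB1 204171_at did not overlap (-0.22), against 10.6% of all tested. In this comparison 0% of all tested probe sets were called, although 3437 had an unadjusted p under 0.05. Infliximab 24 h replicate 7 was the lowest of its group for 212912_at and 204906_at. The differences of both under other choices of arrays are also given as values only. They were 1.08 and 0.63 without replicate 7, and 0.29 and 0.11 without the 3 arrays that stood apart, where replicate 7 is the only 24 h infliximab array left. The interaction of drug and time, likewise a value without a test, was 0.83 for 212912_at. Over all probe sets 0% were called for the interaction, with 2642 at an unadjusted p under 0.05. For 212912_at it was 1.09 without replicate 7 and 0.3 without the 3 arrays that stood apart.

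None of the 11 other tested probe sets of the family was called with infliximab, at 6 h or at 24 h, against untreated cells (0 of 11 in each). Over the whole array 8.42% of tested probe sets were called at 6 h (4.02% higher, 4.4% lower) and 6.57% at 24 h (3.78% higher, 2.79% lower). The median log2 difference over the 11 was 0.01 at 6 h (from -0.41 to 0.23) and 0.03 at 24 h (from -0.25 to 0.24), next to -0.04 and -0.02 over all tested probe sets. The lowest limma adjusted p was 0.391 at 6 h and 0.274 at 24 h, and no unadjusted p was under 0.05. The 95% intervals of the 11 differences together ran from -0.99 to 0.56 at 6 h and from -0.66 to 0.67 at 24 h, that is from 0.503-fold to 1.47-fold and from 0.633-fold to 1.59-fold. Changes within those bounds were not resolved by 3 arrays per group. Set against CDP870, 0 of 11 were called at 6 h (9.07% of all tested, 5.1% higher and 3.98% lower) and 0 of 11 at 24 h (6.51%, 4.73% higher and 1.79% lower), with 1 probe set at an unadjusted p under 0.05 at 6 h. Between these groups the values of 3 of the 11 probe sets did not overlap at 6 h (37.7% of all tested) and 1 of 11 at 24 h (20.5%).

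**Figure D2:**
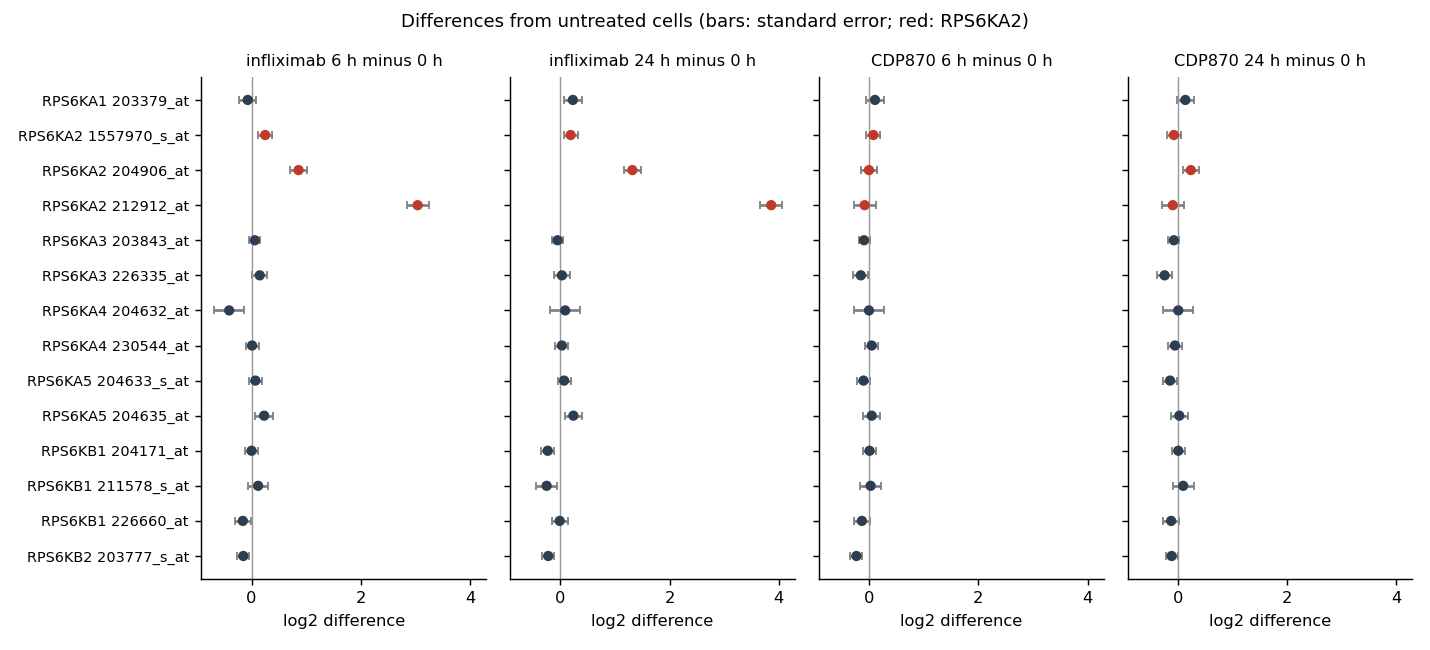
Log2 difference from untreated cells with its standard error for the 14 tested probe sets of the family, in panels for infliximab at 6 h and 24 h and CDP870 at 6 h and 24 h. RPS6KA2 probe sets 212912_at (3.04 and 3.86) and 204906_at (0.86 and 1.32) lie to the right with infliximab, and the 11 probe sets of the other genes lie between -0.41 and 0.24.

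Of the other RSK kinases, RPS6KA1 (RSK1, chr1:26529761-26575025) was read by 203379_at at 7.1, 7.18 and 7.25 with infliximab for 6 h, 7.77, 7.62 and 7.05 with infliximab for 24 h, 7.41, 7.28 and 7.4 with CDP870 for 6 h, 7.33, 7.29 and 7.55 with CDP870 for 24 h, and 7.1, 7.51 and 7.14 in untreated cells. The 6 h infliximab arrays all lay below the CDP870 6 h arrays. The highest infliximab values came from replicates 5 and 6 at 24 h, and the highest untreated value from replicate 3, the 3 arrays that stood apart. The difference from untreated cells was -0.07 ± 0.16 at 6 h and 0.23 ± 0.16 at 24 h. The 24 h difference depended on the arrays used. It was 0.44 without infliximab 24 h replicate 7 (limma adjusted p = 0.0464), where 9.07% of all tested probe sets were called. Without replicate 5 it was 0.08. Without the 3 arrays that stood apart it was -0.07, which rests on replicate 7 as the only infliximab 24 h array.

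RPS6KA3 (RSK2, chrX:20149911-20267097), whose loss causes Coffin-Lowry syndrome, had 2 probe sets. By 203843_at it read 5.31, 5.64 and 5.34 with infliximab for 6 h, 5.28, 5.32 and 5.34 with infliximab for 24 h, 5.25, 5.25 and 5.33 with CDP870 for 6 h, 5.34, 5.39 and 5.16 with CDP870 for 24 h, and 5.29, 5.33 and 5.48 in untreated cells. By 226335_at it read 5.34, 5.48 and 5.49 with infliximab for 6 h, 5.2, 5.4 and 5.35 with infliximab for 24 h, 5.07, 5.18 and 5.18 with CDP870 for 6 h, 5.08, 5.27 and 4.79 with CDP870 for 24 h, and 5.57, 5.03 and 5.27 in untreated cells. Both probe sets overlapped between infliximab and untreated cells at each time. Against CDP870 at 6 h, 226335_at was 0.29 ± 0.14 higher with no overlap, was not called among all 5 groups, and had a limma adjusted p of 0.04 when only those groups were fitted, where 17.7% of all tested probe sets were called.

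Of the MSK kinases, RPS6KA4 (MSK2, chr11:64359162-64372215) had the probe set with the largest standard error of the 11, 0.27. Probe set 204632_at read 5.38, 5.32 and 5.58 with infliximab for 6 h, 6.7, 5.91 and 5.16 with infliximab for 24 h, 5.85, 5.72 and 5.95 with CDP870 for 6 h, 5.78, 5.8 and 5.96 with CDP870 for 24 h, and 5.63, 6.23 and 5.65 in untreated cells. The 6 h infliximab arrays were all below the untreated and CDP870 6 h arrays, and the 24 h infliximab arrays held both the highest and the lowest value of the 15. The difference was -0.41 ± 0.27 from untreated cells (limma adjusted p = 0.391) and -0.41 ± 0.27 from CDP870 at 6 h. Without the 3 arrays that stood apart the difference from CDP870 at 6 h was -0.41 (limma adjusted p = 0.0105), where 19.5% of all tested probe sets were called, and with the spike-in level as a covariate it was -0.17 and not called. The difference from CDP870 at 24 h was 0.08 with all arrays and -0.69 without those 3, a value that rests on replicate 7 as the only infliximab array. Probe set 230544_at was near the array medians, between 2.8 and 3.3 on all 15 arrays, above the median on 10 of them.

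RPS6KA5 (MSK1, chr14:90847861-91060641) encodes a kinase with histone H3 among its substrates. By 204633_s_at it read 4.62, 4.8 and 4.59 with infliximab for 6 h, 4.58, 4.68 and 4.76 with infliximab for 24 h, 4.72, 4.21 and 4.58 with CDP870 for 6 h, 4.44, 4.42 and 4.52 with CDP870 for 24 h, and 4.64, 4.64 and 4.53 in untreated cells. The 24 h infliximab arrays all lay above the CDP870 24 h arrays, by 0.21 ± 0.12, and overlapped the untreated ones. By 204635_at it read 3.71, 3.57 and 3.82 with infliximab for 6 h, 4.01, 3.56 and 3.56 with infliximab for 24 h, 3.29, 3.83 and 3.44 with CDP870 for 6 h, 3.72, 3.33 and 3.44 with CDP870 for 24 h, and 3.34, 3.56 and 3.51 in untreated cells. The 6 h infliximab arrays lay above the untreated ones by 0.23 ± 0.16 with no overlap (limma adjusted p = 0.404), which with 204632_at makes 2 of 11 probe sets without overlap, next to 29.5% of all tested. The last probe set, 1554319_at, was at 0.6 to 0.89 on all 15 arrays, never passed the median and was not tested.

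The S6K kinase RPS6KB1 (S6K1, chr17:59893121-59950574) had 3 probe sets. Probe set 204171_at read 5.96, 6.01 and 5.94 with infliximab for 6 h, 5.57, 5.75 and 5.92 with infliximab for 24 h, 5.94, 6.15 and 5.87 with CDP870 for 6 h, 6.05, 6.12 and 5.78 with CDP870 for 24 h, and 6.09, 5.8 and 6.03 in untreated cells. Probe set 211578_s_at read 5.56, 5.88 and 5.48 with infliximab for 6 h, 5.17, 5.05 and 5.59 with infliximab for 24 h, 5.48, 5.47 and 5.71 with CDP870 for 6 h, 5.69, 5.83 and 5.34 with CDP870 for 24 h, and 5.67, 5.08 and 5.81 in untreated cells. For both, infliximab 24 h arrays included the lowest values of the 15 and overlapped the untreated arrays, with untreated replicate 3 low in each. Probe set 226660_at lay between 5.74 and 6.31, and its groups overlapped in the same way. RPS6KB2 (S6K2, chr11:67428494-67435401) was read by 203777_s_at at 5.14, 5.14 and 5.33 with infliximab for 6 h, 5.1, 5.21 and 5.1 with infliximab for 24 h, 5.1, 5.13 and 5.14 with CDP870 for 6 h, 5.31, 5.05 and 5.38 with CDP870 for 24 h, and 5.18, 5.52 and 5.36 in untreated cells, with all groups overlapping the untreated one except CDP870 for 6 h.

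With CDP870, 0 of the 14 tested probe sets of the family were called at 6 h or at 24 h (0% of all tested each). RPS6KB2 was the 1 of 14 without overlap with untreated cells at 6 h (10% of all tested), and RPS6KA5 204633_s_at the 1 of 14 at 24 h (9.25%). Between 24 h and 6 h, 0 of the 11 probe sets of the other genes were called with infliximab, and 0 of 14 with CDP870. Over all tested probe sets 0% were called in both, with 1437 at an unadjusted p under 0.05 for CDP870.

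**Figure D3:**
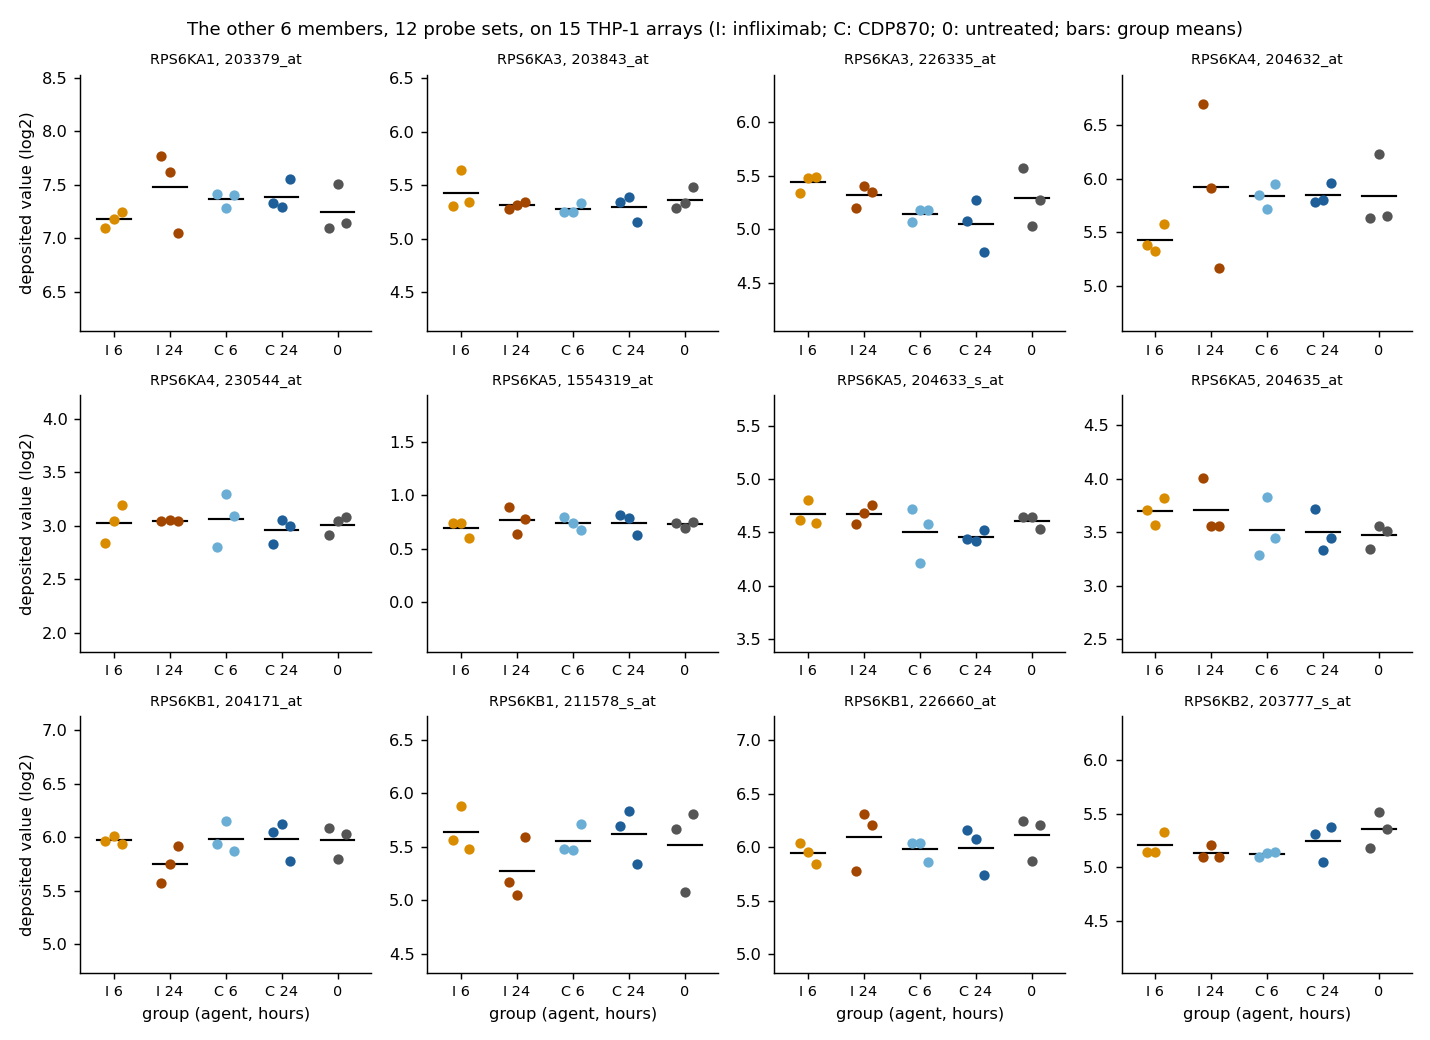
Log2 values on all 15 arrays of the 12 probe sets of the other 6 genes, 1 panel each, with group means as bars. RPS6KA4 204632_at spreads widely with infliximab for 24 h (5.16 to 6.7), and RPS6KA5 1554319_at lies at 0.6 to 0.89 throughout.

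Genes whose pattern over the 15 arrays was closest to RPS6KA2 were found by the root mean square difference after each probe set was centred on its own mean. From 204906_at, the RPS6KA2 probe set with the highest mean, the nearest of 13606 genes were SLC1A4, a neutral amino acid transporter (0.18), ITGAL, an integrin of leukocytes (0.18), SLC31A1, a copper transporter (0.2), XAF1, an antagonist of the apoptosis inhibitor XIAP (0.2), and AARS1, an alanyl-tRNA synthetase (0.21). The median gene was at 0.56, and RPS6KA2 itself spread by 0.55 about its mean. All 5 were higher on every infliximab array than on every other array, as 204906_at was. They were picked for likeness to it over these same arrays, so this is no separate result. SLC1A4 read 7.37, 7.38 and 7.46 with infliximab for 6 h, 7.84, 7.91 and 7.53 with infliximab for 24 h, 6.55, 6.32 and 6.57 with CDP870 for 6 h, 6.56, 6.54 and 6.43 with CDP870 for 24 h, and 6.45, 6.21 and 6.45 in untreated cells. From 212912_at, an anchor added after its values were seen, the nearest were ASNS (0.39), the asparagine synthetase, ALDH1L2 (0.46), a mitochondrial folate enzyme, CTH (0.49), which makes cysteine from cystathionine, DDIT4 (0.5), an inhibitor of mTORC1 signalling, and VEGFA (0.56), a vascular growth factor. The median gene there was at 1.75. From 1557970_s_at, also added later, COQ5 (0.09) and TBRG1 (0.1) were nearest and the median was 0.24. The 3 anchors share no gene among their 5 nearest.

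**Figure D4:**
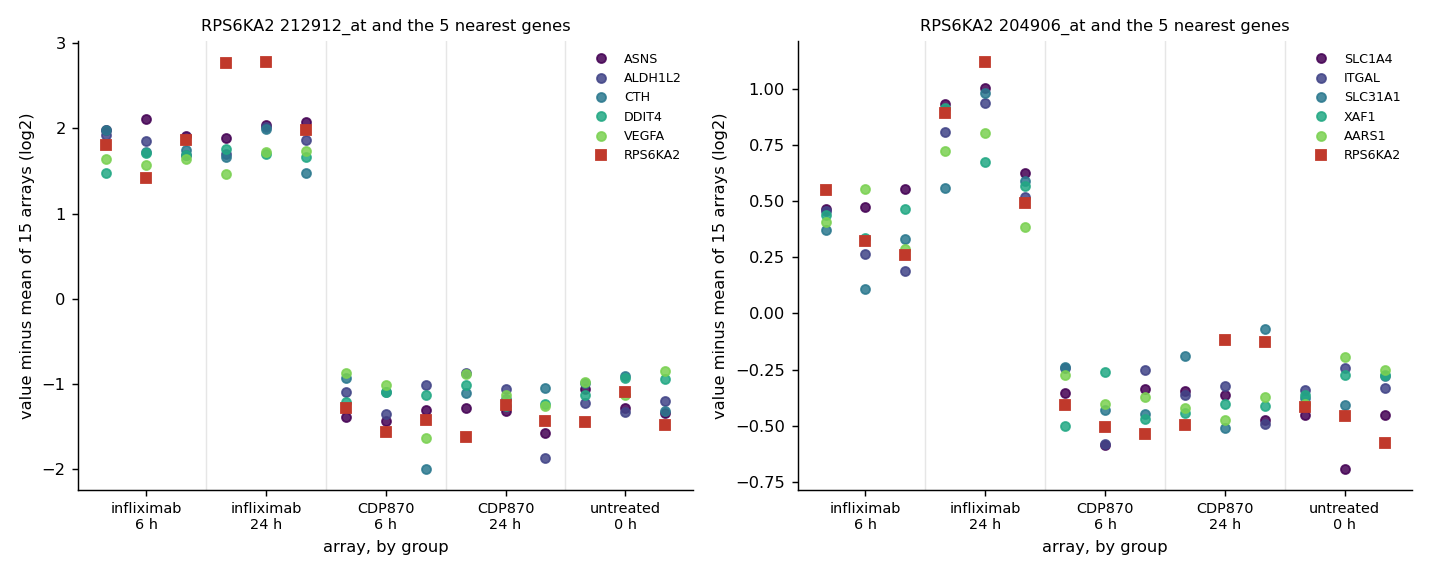
Centred log2 values (probe set value minus its mean over 15 arrays) of RPS6KA2 204906_at and 212912_at with the 5 nearest genes of each, by array. RPS6KA2 and the named genes are above 0 on all 6 infliximab arrays and below 0 on the 9 others. The genes were picked for likeness to RPS6KA2 over these same arrays.

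Of the kinases and regulators that switch RSK and MSK on, 13 of 20 listed genes were tested. This list and those that follow were drawn up with earlier results of these data known, so their shares are descriptive only. A list gene is read by its tested probe set of highest mean, while the shares over the array take in every tested probe set. DUSP6, a phosphatase that turns ERK off, was 0.46 ± 0.12 higher with infliximab at 6 h and 0.51 ± 0.12 at 24 h (limma adjusted p = 0.0261 and 0.0173). HRAS, a GTPase upstream of ERK, differed by -0.49 ± 0.12 at 6 h (adjusted p = 0.0184), and KSR1, a scaffold of the ERK cascade, was 0.64 ± 0.13 higher at 24 h (adjusted p = 0.0101). That is 1 higher and 1 lower of 13 at 6 h (15.4%, against 8.42% of all tested probe sets). At 24 h it is 2 higher of 13 (15.4%, against 6.57%). The list medians were -0.08 and 0.07. Against CDP870, DUSP6 was 0.66 higher at 6 h (1 of 13, 7.69%, against 9.07% of all tested probe sets). At 24 h DUSP6 (0.64), KSR1 (0.67) and MAPK13, a p38 kinase (0.51), were higher (3 of 13, 23.1%, against 6.51%). MAPK13 at 24 h differed from untreated cells by 0.07 with infliximab and by -0.44 with CDP870, neither called. HRAS at 6 h differed by -0.21 between infliximab and CDP870 and by -0.28 between CDP870 and untreated cells, neither called. The call of DUSP6 against untreated cells was lost in 6 of 24 alternative settings at each time (differences of 0.39 to 0.55 at 6 h and 0.39 to 0.61 at 24 h), among them leaving out untreated replicate 2 or 4. HRAS lost its call in 5 of 24 (-0.6 to -0.42), among them leaving out infliximab 6 h replicate 8 or 9 or untreated replicate 3. With the spike-in level as a covariate, neither DUSP6 nor HRAS was called at 6 h against untreated cells; that level was 7.75 ± 0.04 with infliximab for 6 h and 7.38 ± 0.13 in untreated cells. KSR1 lost it in 2 of 23 (0.37 to 0.8), 1 of which leaves out the 3 arrays that stood apart, and MAPK13 lost its call against CDP870 in 7 of 23. MAP2K2 and DUSP6, the highest of the list, differed by -0.19 and -0.2 with CDP870 at 6 h and by 0.1 and -0.13 at 24 h, with 0 of 13 called.

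For mTORC1 and its regulators, which act on the S6K kinases, 17 of 20 listed genes were tested. The same 2 were called higher at both times, with 0 lower (11.8% each, against 8.42% and 6.57% of all tested probe sets). DDIT4, which restrains mTORC1, read 8.87, 9.11 and 9.08 with infliximab for 6 h, 9.15, 9.09 and 9.06 with infliximab for 24 h, 6.18, 6.3 and 6.26 with CDP870 for 6 h, 6.38, 6.13 and 6.16 with CDP870 for 24 h, and 6.26, 6.46 and 6.45 in untreated cells. All 6 infliximab arrays stood above all others, by 2.63 ± 0.1 at 6 h and 2.71 ± 0.1 at 24 h (limma adjusted p = 1.31e-09 and 8.55e-10). MLST8, a subunit of the mTOR complexes, was 0.92 ± 0.12 and 1.12 ± 0.12 higher (adjusted p = 0.000305 and 4.5e-05). Both calls held in all 24 alternative settings against untreated cells and against CDP870. The list medians were -0.11 and 0.13, and the other 15 genes were not called. This list, too, was drawn up with earlier results known, so its shares are descriptive only. With CDP870 0 of 17 were called, and RHEB and PPP2CA, the highest of the list, differed by 0.05 and -0.01 at 6 h and by -0.04 and -0.02 at 24 h.

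Among substrates of RSK, MSK or S6K, 26 of 29 listed genes were tested. They, too, were listed with earlier results of these data known, so the shares are descriptive only. At 6 h of infliximab 4 were called higher and 1 lower (19.2%, against 8.42% of all tested probe sets). At 24 h 3 were called higher (11.5%, against 6.57%). The list medians were 0.0 and 0.06. ATF4, a transcription factor of the stress response, was 0.87 ± 0.08 and 0.88 ± 0.08 higher (limma adjusted p = 1.7e-05 and 1.19e-05), and CEBPB, a transcription factor of myeloid cells, was 0.88 ± 0.09 and 0.95 ± 0.09 higher (5.67e-05 and 2.1e-05). Both held in all 24 alternative settings. CDKN1B, a cell cycle inhibitor, was 0.64 ± 0.11 and 0.51 ± 0.11 higher (0.00351 and 0.0143), and FOS, a transcription factor of the immediate early response, was 0.5 ± 0.14 higher at 6 h (adjusted p = 0.0419), a call lost in 11 of 23 settings. CAD, the pyrimidine synthesis enzyme, differed by -1.03 ± 0.23 at 6 h (adjusted p = 0.0131). With the spike-in level as a covariate, CDKN1B, FOS and CAD were not called at 6 h against untreated cells, nor FOS and CAD against CDP870. CDKN1B lost its call in no other of the 24 settings at 6 h and in 4 of 24 at 24 h, among them leaving out infliximab 24 h replicate 6 or untreated replicate 3. CAD lost its call in 3 of 24, the others leaving out infliximab 6 h replicate 9 or untreated replicate 3. Against CDP870, FOS (0.67), ATF4 (0.84) and CEBPB (1.0) were higher and CAD (-1.03) lower at 6 h. At 24 h ATF4 (0.89) and CEBPB (1.11) were higher. CDKN1B differed from CDP870 by 0.34 at 6 h and 0.32 at 24 h and was not called. With CDP870 it was 0.3 and 0.19 above untreated cells, also not called. With CDP870 0 of 26 were called, and RPS6, the substrate that names the family, and YBX1 differed by 0.01 and 0.04 at 6 h and by -0.01 and 0.06 at 24 h.

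**Figure D5:**
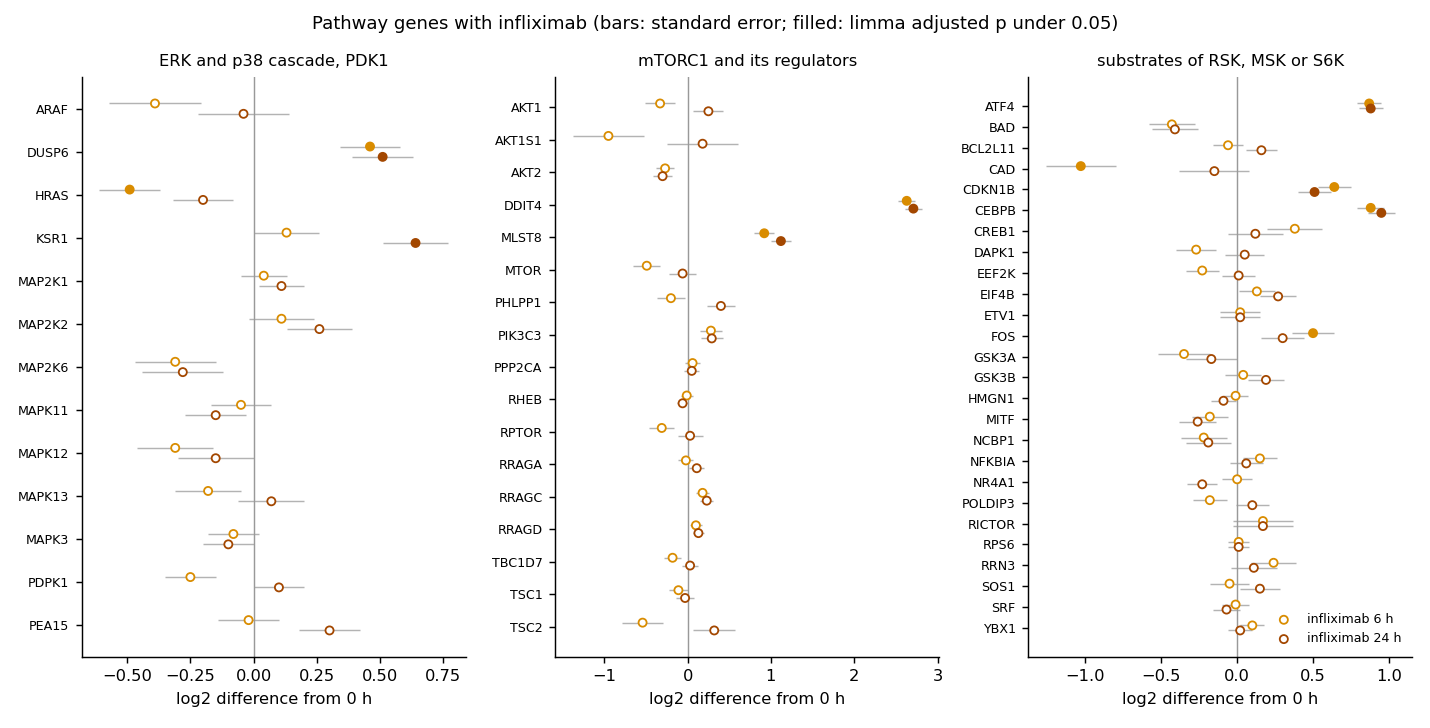
Log2 difference between infliximab and untreated cells, at 6 h and 24 h, for the tested genes of the 3 lists (kinases upstream of RSK and MSK, mTORC1 and its regulators, substrates); filled symbols are limma calls. DDIT4 (2.63 and 2.71) and MLST8 (0.92 and 1.12) lead the mTORC1 list, and ATF4, CEBPB and CDKN1B are called at both times among the substrates.

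Genes named alike but outside the list of members gave no call. RPS6KC1 differed by -0.15 with infliximab at 6 h and by 0.28 at 24 h, and RPS6KL1 by -0.11 and -0.21 (0 of 2 called at each time). The antisense RNA RPS6KA2-AS1, which lies in the RPS6KA2 locus, and RPS6KA6, the fourth RSK gene, were below the filter.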

How the data were processed

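The authors deposited log2 probe set values for 15 arrays. GCRMA and GCOS 1.3.0 are named per the submitters' processing notes, without a role, and the zero of the scale is not given in the sources used here. Groups came from the labels. Probe sets were tested when 3 or more of the 15 arrays had them above that array's 50th percentile (28897 of 54613 non-control probe sets). Group means were estimated over all arrays in limma 3.58.1 (R 4.3.3) with an empirical Bayes variance; a call is a Benjamini-Hochberg adjusted p under 0.05 within a comparison over all tested probe sets. Folds are antilogs of log2 differences, with no pseudocount. The fit was tested on simulated data. Figures used matplotlib 3.10.9 in Python 3.11.15. Promoter windows and gene positions are from RefSeq (GRCh38.p14). Named are all members, the 5 genes nearest to RPS6KA2, up to 4 called genes per list and comparison by smallest p, and 2 genes of highest mean where none was called; a list gene is read by whichever tested probe set had the highest mean. Members and lists were chosen with earlier results of these data known. Alternatives were another filter, renormalization, array weights, an intensity trend, gene means, a spike-in covariate, only the groups compared, and leaving out arrays.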

Additional observations from a re-analysis of the deposited data

How the results depend on the processing

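Against untreated cells, 0 of the members tested (those other than RPS6KA2) were called with infliximab at 6 h under any setting run. Against CDP870 at 6 h, the count of called members was 2 with only the groups compared (RPS6KA3 226335_at and RPS6KA4 204632_at, where 17.7% of all tested probe sets were called) and 1 without the 3 arrays that stood apart (19.5%). Against CDP870 at 24 h it was 1 without them (5.11%), but that setting leaves 1 infliximab array, which is assumed to vary like the other groups. Leaving out 1 array gave 0 to 1 called at 24 h of infliximab against untreated cells, 0 to 4 between 24 h and 6 h of infliximab and 0 to 1 for the interaction, and 0 to 0 in the other 6 comparisons. Each highest count came without infliximab 24 h replicate 7, where calls over the whole array were 9.07%, 8.52% and 3.18%. Of the 4, 2 were RPS6KA2 probe sets, as was the 1 for the interaction. The gene was selected on infliximab arrays, so these calls are not read as tests of it. Counts for CDP870 against untreated cells and between its times take in 212912_at, which is a value only there. RPS6KA2 204906_at differed from untreated cells at 6 h by 1.1 with the spike-in covariate, and from CDP870 at 6 h by 1.03. Of the RPS6KA2 differences between infliximab and untreated cells or CDP870, only that of 1557970_s_at changed sign, from untreated cells, where it turned to -0.03 at 24 h without the 3 arrays that stood apart. Leaving out 1 array moved 212912_at between 2.95 and 3.18 at 6 h and between 3.72 and 4.12 at 24 h. The cause of these shifts was not tested. With 3 arrays per group, small differences were not resolved, and low probe sets such as 212912_at outside infliximab lie where the scale is least certain. No paired analysis was run because the labels do not say which cultures belong together. Their numbers run on through the series, so each occurs in only 1 group whether or not cultures were paired.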
